A study of Mus musculus with 6 samples.

Results

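The amyloid precursor protein gene App, its paralogs Aplp1 and Aplp2, the beta-secretase genes Bace1 and Bace2, the gamma-secretase subunit genes Psen2, Ncstn and Aph1a, and the App adaptor gene Apbb1 were examined in RNA from old mouse brain. These 9 genes were taken by symbol from a table of 38087 Ensembl genes, and each symbol matched a single row. The study compared 24-month-old C57BL6 mice that carried 1 working copy of Sgo1 in every tissue (Sgo1-/+) with wild-type (WT) mice of the same age, with 3 libraries per genotype and 1 library per mouse. Sgo1 encodes Shugoshin-1, which protects centromeric cohesion, and Sgo1-/+ mice were used as a model of cohesinopathy with chromosome instability. No animal was treated, and the RNA came from frozen cerebrum, stated to hold cortex and hippocampus and to be free of olfactory bulb, cerebellum and medulla.

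The WT group was 1 male (replicate 1) and 2 females, all labelled run 258, and the Sgo1-/+ group was 1 male (replicate 2) and 2 females, all labelled run 259. Genotype and run therefore cannot be told apart. The libraries held between 11123917 and 12505561 estimated counts. Sgo1 itself had between 0 and 7 estimated counts in any library, too few to check the genotype labels.

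App is a membrane protein of neurons and other cells that is cut in 2 alternative ways. Alpha-secretases such as Adam10 cut within the amyloid-beta stretch and prevent the peptide from forming. In the other route, Bace1 makes the first cut, and gamma-secretase then releases amyloid-beta from the membrane. Gamma-secretase is a complex of a presenilin such as Psen2, nicastrin (Ncstn), an Aph1 protein and Psenen. Apbb1, also called Fe65, binds a short motif in the cytoplasmic tail that App shares with Aplp1 and Aplp2. Amyloid-beta accumulates in the brain in Alzheimer's disease. These data hold the RNA level of its genes, not the proteins or the peptide.

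The stretch that encodes amyloid-beta is shown because it is the part of App that gives the peptide, and neither paralog carries it. It was read 5′ to 3′ from the annotated mouse transcript App-206 (GENCODE M21, GRCm38/mm10), where it spans the end of exon 16 (chr16:84965670-84965729, minus strand) and the start of exon 17 (chr16:84962785-84962868). Capitals mark the 42 codons of the peptide. A search for the opening residues of the peptide in the translated Aplp1 and Aplp2 sequences found 0 matches.
App amyloid-beta: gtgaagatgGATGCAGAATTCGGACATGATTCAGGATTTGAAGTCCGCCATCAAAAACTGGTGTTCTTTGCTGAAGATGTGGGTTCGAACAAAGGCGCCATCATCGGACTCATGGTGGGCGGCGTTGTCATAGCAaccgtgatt

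The cytoplasmic tails are shown because they hold the motif that the Apbb1 family binds, which is what the 3 substrates have in common. All 3 were read 5′ to 3′ from coding exons on the minus strand, exon 18 of App (chr16:84955343-84955384), exon 17 of Aplp1 (chr7:30435302-30435343) and exon 17 of Aplp2 (chr9:31150883-31150924). Capitals mark the 4 codons of the adaptor-binding motif.
App tail: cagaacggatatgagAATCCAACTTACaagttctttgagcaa
Aplp1 tail: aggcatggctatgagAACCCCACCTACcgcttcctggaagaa
Aplp2 tail: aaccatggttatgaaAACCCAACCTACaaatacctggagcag
Over these 42 bases, App was identical to Aplp1 at 27 and to Aplp2 at 29, and Aplp1 was identical to Aplp2 at 30.

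The codons around the catalytic aspartates are shown because they are the active sites that make Bace1 and Bace2 proteases. Bace1 was read from exon 2 (chr9:45852888-45852929) and exon 6 (chr9:45858409-45858450), and Bace2 from exon 2 (chr16:97399634-97399675) and exon 6 (chr16:97415088-97415129), all on the plus strand. Capitals mark the 4 codons that begin at each catalytic aspartate.
Bace1 first site: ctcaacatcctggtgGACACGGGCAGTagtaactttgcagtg
Bace2 first site: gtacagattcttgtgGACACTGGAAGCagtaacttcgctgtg
Bace1 second site: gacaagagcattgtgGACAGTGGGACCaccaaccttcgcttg
Bace2 second site: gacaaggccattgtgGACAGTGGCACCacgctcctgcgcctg
The paralogs were identical at 31 of 42 bases at the first site and at 34 of 42 at the second.

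Psen2 is shown around a catalytic aspartate that gives gamma-secretase its activity. The stretch crosses an exon junction, from the last base of exon 9 (chr1:180229386) into exon 10 (chr1:180228921-180228961, minus strand). Capitals mark 4 codons, the last of them the aspartate.
Psen2: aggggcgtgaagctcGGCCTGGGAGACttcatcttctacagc
Across whole exon sequences the longest run shared by App and Aplp2 was 24 bases and by Bace1 and Bace2 15 bases. No 50-base word was shared within these pairs, whereas Aph1b and Aph1c shared a run of 341 bases and 18.4% of their 50-base words, so the split of reads between Aph1b and Aph1c is uncertain.

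WT replicate 1 stood apart from the other 5 libraries and went against its tissue label. Summed normalized counts (estimated counts scaled by TMM, edgeR's trimmed mean of M-values, to a common library size) of 7 cortex and hippocampus markers were 1566 in this library and 4037 to 5760.2 in the others, and 5 of the 7 were lowest in it. Tbr1, a transcription factor of cortical projection neurons, was at 48.3 against 913 to 1359. The 7 brain stem markers, Hox genes among them, summed to 1309 against 9.93 to 20.9 and were all highest in it. So were the 8 cerebellum markers, which summed to 25415 against 1726 to 2975, with Gabra6 of cerebellar granule cells at 2167 against 0 to 72.6. Markers of oligodendrocytes summed to 142976 against 54784 to 135482 (5 of 7 highest in it). The value of 135482 was that of Sgo1-/+ replicate 3, and the next highest was 79313 in Sgo1-/+ replicate 1. Markers of microglia summed to 2521 in WT replicate 1 against 3108 to 3779 (5 of 6 lowest). The neuron sum of 74409 against 75613 to 98997 was mixed, with 3 of 7 markers lowest in this library (Syt1 at 5379.6 against 18496 to 23342) and 3 highest (Nefl at 10444 against 3911 to 7089). The astrocyte sum of 55682 against 45741 to 52371 had 5 of 6 markers highest in it, while Slc1a2 was lowest. Although the tissue was stated to be free of olfactory bulb, its 5 markers summed to 295, 1756 and 1383 in WT replicates 1 to 3. In Sgo1-/+ replicates 1 to 3 they summed to 802, 172 and 104. WT replicates 2 and 3 thus lay above every Sgo1-/+ library, so these sums differ between the genotypes also without WT replicate 1. The 6 choroid plexus markers summed to 21082, 7491 and 599.5 in WT and to 1175, 283 and 23604 in Sgo1-/+. In bulk RNA, fewer cells of a type and less RNA per cell cannot be told apart. The genotype comparisons are therefore given with and without WT replicate 1. This library is also the only WT male. Without it the WT group is all female, while the Sgo1-/+ group keeps its male.

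Between the genotypes, none of the 9 genes passed the test for a difference. After Benjamini-Hochberg adjustment over all 16337 genes tested by edgeR's quasi-likelihood method, 0 of 9 had an adjusted p under 0.05, as did 0 of the 16337 (0%). At an unadjusted p under 0.05 the count was 0 of 9, against 333 genes in all (2.04%). Without WT replicate 1 it was again 0 of 9, against 626 of 16617 genes (3.77%). DESeq2 called 3 genes and edgeR's likelihood ratio test called 2, with no member among them, and limma called 0. The adjusted p was 0.9999 for each of the 9 genes, and 0.9995 without WT replicate 1. The median log2 fold change (Sgo1-/+ over WT) of the 9 genes was -0.01, with a range of -0.08 to 0.22, and the median of all genes tested was -0.001. Without WT replicate 1 the median of the 9 genes was 0.13, with a range of -0.08 to 0.26, and that of all genes 0.005. Fold changes below come from the edgeR fit, with 95% intervals, and p-values from the exact two-sided permutation test rest on 20 groupings of the 6 libraries, so that 0.1 is the smallest they can give. These p-values measure the spread between 3 libraries per genotype.

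**Figure D1:**
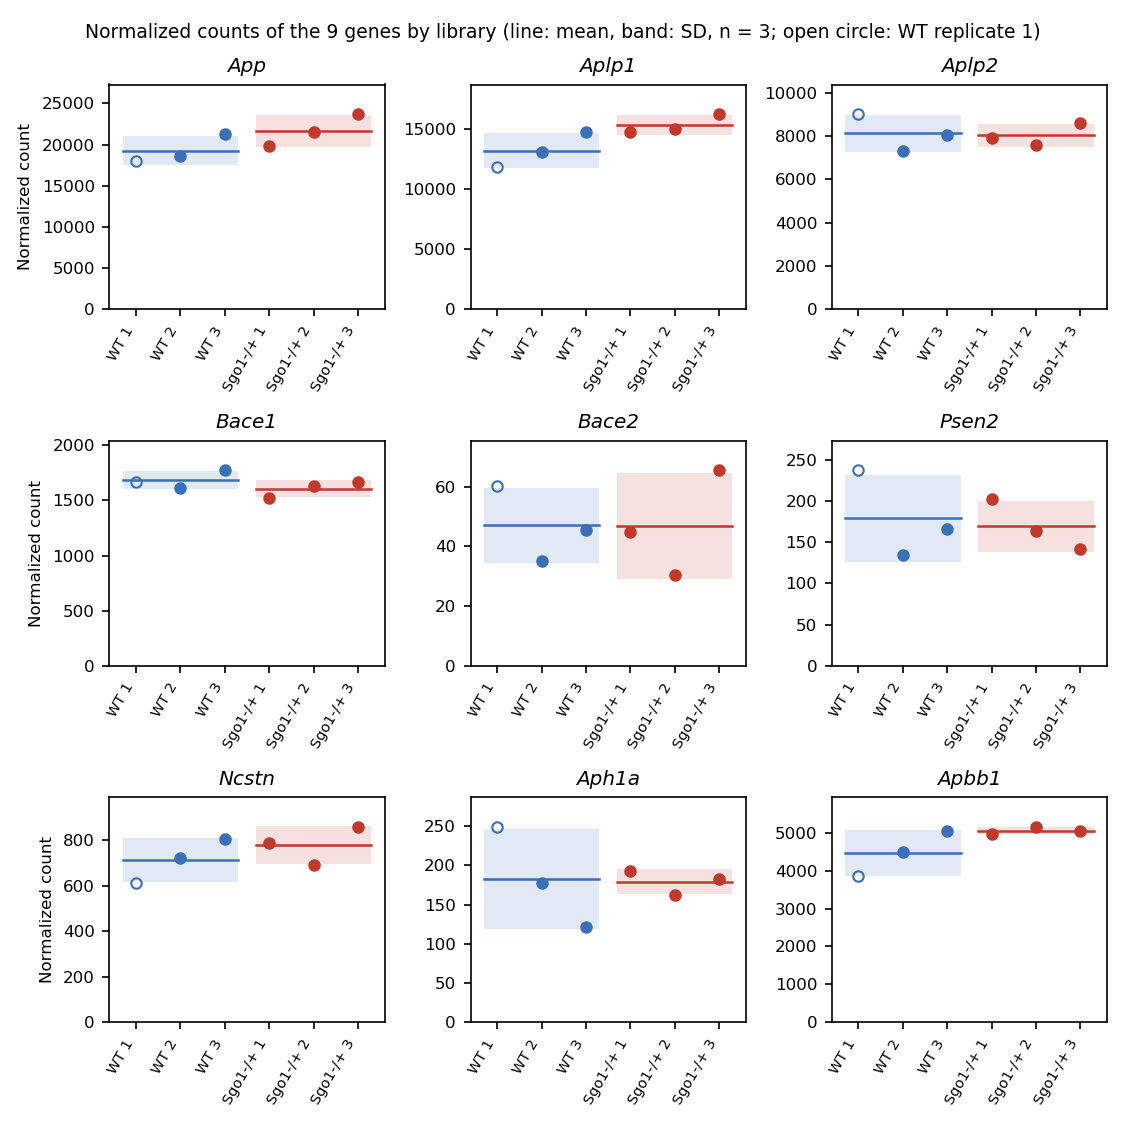
Normalized counts of the 9 genes in each of the 6 libraries, 1 panel per gene, with the mean of each genotype as a line, its SD as a band (n = 3) and WT replicate 1 as an open circle. For Aplp1 the 3 Sgo1-/+ libraries (14762 to 16248) lie above the 3 WT libraries (11809 to 14716), while the genotypes overlap for the other 8 genes.

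Among the substrates, the App gene (ENSMUSG00000022892, chr16:84954440-85173707 in mm10, minus strand) had 18014, 18554 and 21228 normalized counts in WT replicates 1 to 3. Its counts in Sgo1-/+ replicates 1 to 3 were 19868, 21504 and 23737. WT replicate 3 lay above Sgo1-/+ replicate 1, so the genotypes overlapped, although the lowest 2 libraries were WT and the highest 2 were Sgo1-/+. Mean counts were 19265 ± 1721 (SD, n = 3) for WT against 21703 ± 1942 (SD, n = 3) for Sgo1-/+. App thus had a log2 fold change of 0.17 (SE 0.145, interval -0.17 to 0.52) and an exact permutation p of 0.2. On the linear scale this interval runs from 0.887-fold to 1.43-fold. Leaving out WT replicate 1 gave 0.13 (interval -0.16 to 0.41).

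Aplp1 (ENSMUSG00000006651, chr7:30434981-30445582, minus strand), the paralog found mainly in neurons, had 11809, 13044 and 14716 normalized counts in WT. Its Sgo1-/+ counts were 14762, 14963 and 16248. Every Sgo1-/+ library was above every WT library, although the nearest pair, WT replicate 3 and Sgo1-/+ replicate 1, were only 14716 and 14762. Aplp1 was the single member of 9 whose genotypes did not overlap, against a background of 529 genes (3.24%) that did not overlap in this direction and 6.81% in either. Mean counts were 13189.6 ± 1459 (SD, n = 3) and 15324 ± 806 (SD, n = 3), the log2 fold change 0.22 (SE 0.139, interval -0.11 to 0.55) and the exact permutation p 0.1. With WT replicate 1 left out, this value was 0.14 (interval -0.11 to 0.39), the genotypes still did not overlap, and the background in this direction was 8.72%.

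Aplp2 (ENSMUSG00000031996, chr9:31149557-31211815, minus strand), the paralog expressed in most tissues, had 9037, 7336 and 8069 normalized counts in WT and 7939, 7592 and 8629 in Sgo1-/+. The highest and the lowest library were both WT, and the highest was WT replicate 1. The means of 8147 ± 853 (SD, n = 3) and 8053 ± 528 (SD, n = 3) gave a log2 fold change of -0.02 (SE 0.133, interval -0.33 to 0.30). Its sign turned without WT replicate 1, to 0.06 (interval -0.19 to 0.32).

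The beta-secretase gene Bace1 (ENSMUSG00000032086, chr9:45838580-45864399, plus strand) had the smallest standard error of the 9 genes. It had 1671, 1611 and 1774 normalized counts in WT and 1521, 1635 and 1664 in Sgo1-/+. The genotypes overlapped, and WT replicate 1 lay within the range of the other 5 libraries. Its log2 fold change was -0.07 (SE 0.0984, interval -0.30 to 0.16), an interval of 0.811-fold to 1.12-fold on the linear scale. It was -0.08 (interval -0.30 to 0.15) without WT replicate 1. On the other strand, exons of Rnf214 cover 15.36% of the Bace1 exon bases, those of Gm49338 14.98% and those of Gm16536 2.13%. Whether the counting used strand was not stated, so reads from these overlaps may be assigned to Bace1 or to these genes.

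Bace2 (ENSMUSG00000040605, chr16:97356728-97439012, plus strand), a related protease best known from tissues outside the brain, was the least abundant of the 9. It had 60.4, 35.2 and 45.6 normalized counts in WT and 44.7, 30.4 and 65.5 in Sgo1-/+. The highest and the lowest library were both Sgo1-/+. At this depth the log2 fold change of -0.01 (SE 0.359) had an interval from -0.86 to 0.84, so a difference of 1.5-fold in either direction would lie within it. It was 0.21 (interval -0.69 to 1.11) when WT replicate 1 was left out.

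Of the gamma-secretase subunits, Ncstn (ENSMUSG00000003458, chr1:172066013-172082795, minus strand), which receives the substrate, had 611, 723 and 806 normalized counts in WT and 789, 691 and 859 in Sgo1-/+. WT replicate 1 was the lowest library, and the genotypes overlapped with or without it. Ncstn had a log2 fold change of 0.13 (SE 0.142, interval -0.21 to 0.47), and 0.03 (interval -0.26 to 0.32) without WT replicate 1.

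Psen2 (ENSMUSG00000010609, chr1:180227004-180263438, minus strand), a presenilin that carries the active site, had 237, 134 and 166 normalized counts in WT and 202, 164 and 141 in Sgo1-/+. Aph1a (ENSMUSG00000015750, chr3:95893969-95898288, plus strand), which stabilises the complex during assembly, had 249, 178 and 121 in WT and 193, 162 and 182 in Sgo1-/+. For both genes WT replicate 1 was the highest of the 6 libraries. The log2 fold changes were -0.08 (SE 0.249, interval -0.67 to 0.51) for Psen2 and -0.03 (SE 0.264, interval -0.65 to 0.60) for Aph1a. Both turned without WT replicate 1, Psen2 to 0.17 (interval -0.32 to 0.66) and Aph1a to 0.26 (interval -0.23 to 0.75). Car14 on the other strand shares 12.9% of the Aph1a exon bases.

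Of the subunits that were not among the 9 genes, Psenen and Aph1c overlapped between the genotypes and Aph1b did not. Psenen, which activates the presenilin, had a log2 fold change of 0.05 (interval -0.38 to 0.48), and 0.06 (interval -0.42 to 0.54) without WT replicate 1. Its sign turned when library totals alone were used for scaling. Aph1b, the alternative to Aph1a in the complex, had 585, 633 and 560 normalized counts in WT and 544, 548 and 490.1 in Sgo1-/+. Every Sgo1-/+ library was thus below every WT library, against a background of 3.57% in this direction. Its log2 fold change was -0.17 (SE 0.107, interval -0.42 to 0.09) with an exact permutation p of 0.1, and it was -0.18 (interval -0.44 to 0.09) without WT replicate 1. Aph1c, which shares sequence with Aph1b, was at -0.10 (interval -0.65 to 0.44), and at -0.09 (interval -0.69 to 0.51) without that library. Over the 6 gamma-secretase genes listed here, 0 passed the edgeR test and the median log2 fold change was -0.06, or 0.04 without WT replicate 1.

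The adaptor gene Apbb1 (ENSMUSG00000037032, chr7:105558486-105574402, minus strand) had 3851, 4489 and 5051 normalized counts in WT and 4966, 5156 and 5047 in Sgo1-/+. The 3 Sgo1-/+ libraries were close together and WT replicate 3 lay among them, while WT replicates 1 and 2 were lower. The means were 4463 ± 600.3 (SD, n = 3) and 5056 ± 95.3 (SD, n = 3), with a log2 fold change of 0.18 (SE 0.133, interval -0.14 to 0.50) and an exact permutation p of 0.3. Leaving out WT replicate 1 lowered the value to 0.08 (interval -0.15 to 0.32).

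**Figure D2:**
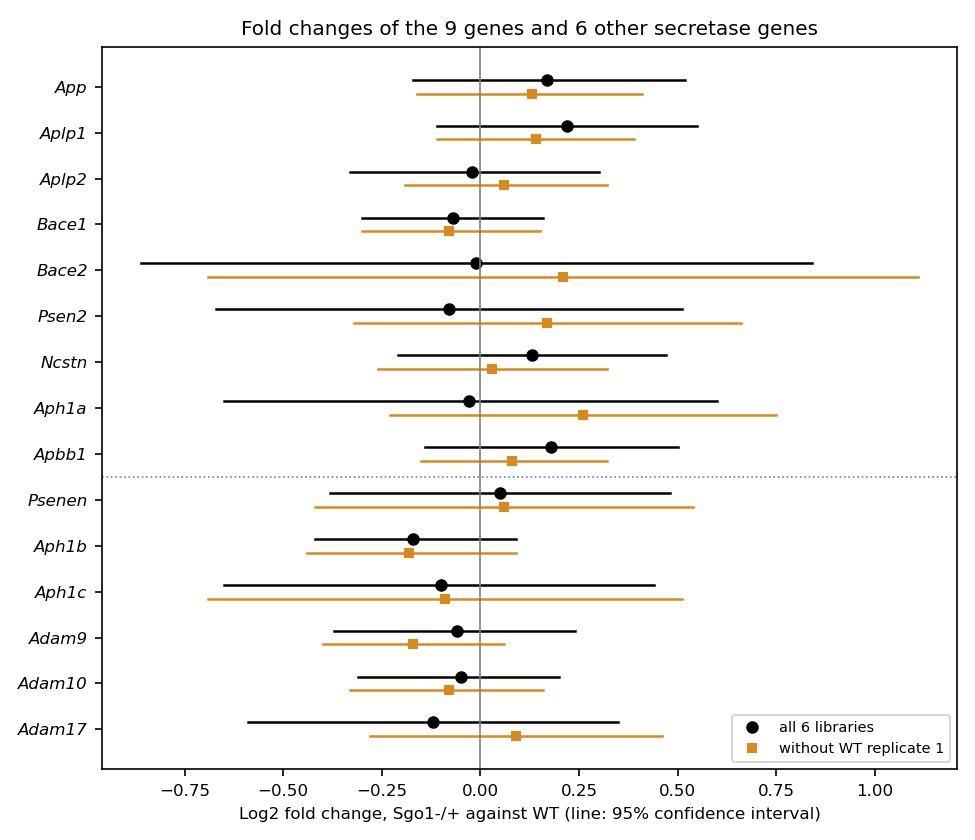
Log2 fold change (Sgo1-/+ over WT) of the 9 genes and the other secretase genes with 95% intervals from the edgeR fit, with all 6 libraries and without WT replicate 1. Every interval spans 0, and Bace2 has the widest interval of the 9 genes (-0.86 to 0.84 with all libraries).

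The rest of the pathway was described by 6 lists. None of the 43 listed genes that are not members passed the edgeR test after Benjamini-Hochberg adjustment, and 0 had an unadjusted p under 0.05, with or without WT replicate 1. Their median log2 fold change was 0.03 with or without it, against -0.001 over all genes tested. The alpha-secretases Adam9, Adam10 and Adam17, which cut App within amyloid-beta, were at -0.06 (interval -0.37 to 0.24), -0.05 (interval -0.31 to 0.20) and -0.12 (interval -0.59 to 0.35). Adam17 was at 314 normalized counts in WT replicate 1 and at 200 to 257 in the other libraries, and its log2 fold change turned to 0.09 (interval -0.28 to 0.46) without it. Adam10 was at -0.08 (interval -0.33 to 0.16) and Adam9 at -0.17 (interval -0.40 to 0.06) without WT replicate 1. Adam9 had 917 and 945 normalized counts in WT replicates 2 and 3 and 866, 783 and 834 in Sgo1-/+. Without WT replicate 1 (729) the genotypes thus did not overlap, with Sgo1-/+ lower. The background was 17.9% of genes in either direction, made up of 8.72% higher in Sgo1-/+ and the rest lower.

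The 4 other proteases that cut App had a median log2 fold change of -0.23, and -0.11 without WT replicate 1, which was the highest library for 4 of 4. Mmp24 and Ctsl are named here because their values stood out, not by a rule. Mmp24, a membrane metalloprotease, had 1119, 586 and 609.7 normalized counts in WT and 546, 507 and 539 in Sgo1-/+. Its log2 fold change of -0.54 (interval -1.15 to 0.07) became -0.17 (interval -0.41 to 0.07) without WT replicate 1. Ctsl, a lysosomal protease, had the smallest unadjusted p of the 43 genes, 0.0562 in the edgeR fit across all genes, with a log2 fold change of -0.29 (interval -0.59 to 0.01). Leaving out WT replicate 1 gave -0.22 (interval -0.50 to 0.06) and an unadjusted edgeR p of 0.104. An antisense gene shares 1742 bases with annotated Ctsl exons, and a processed pseudogene on the same strand shares 395, so reads may be assigned to any of these. The median was 0.07 over 10 cytoplasmic adaptors, 0.06 over 13 sorting genes and 0.13 over 10 other substrates of Bace1 and gamma-secretase. Without WT replicate 1 these medians were 0.07, 0.07 and 0.02.

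WT replicate 1 lay at an end of the range for 7 of the 9 genes. It was the lowest of the 6 libraries for App, Aplp1, Ncstn and Apbb1 (4 of 9, against 30.4% of all genes tested) and the highest for Aplp2, Psen2 and Aph1a (3 of 9, against 28.0%). Relative to the median of the other 5 libraries it was at 0.763 for Apbb1, 0.775 for Ncstn, 0.80 for Aplp1 and 0.849 for App. The same ratio was 1.14 for Aplp2, 1.40 for Aph1a and 1.44 for Psen2, and 1.02 for Bace1. Beside these, the ratio was 0.313 for the summed cortex and hippocampus markers, 1.86 for oligodendrocyte markers, 10.3 for cerebellum markers and 86.0 for brain stem markers. The part of the tissue markers in the members' values was not tested.

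**Figure D3:**
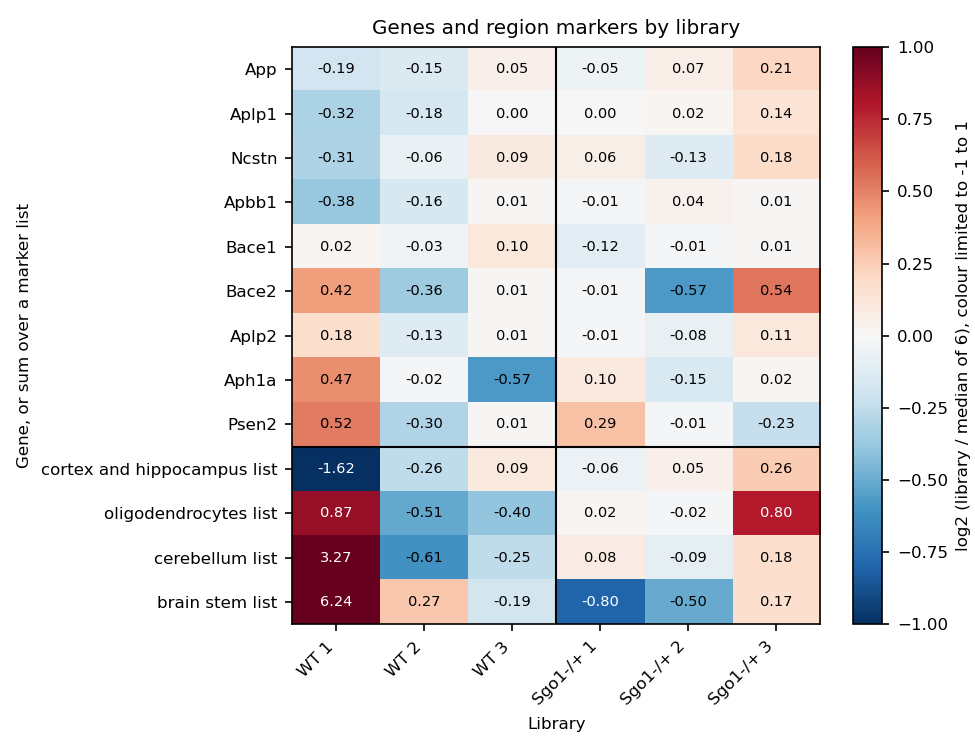
Log2 of each library's normalized count over the median of the 6 libraries for the 9 genes and for the summed counts of 4 marker lists, as a colour scale limited to -1 to 1 with the value in each cell. The WT replicate 1 column holds the lowest values for App, Aplp1, Ncstn and Apbb1 (-0.19 to -0.38) beside -1.62 for cortex and hippocampus and 6.24 for brain stem markers.

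The level of each gene was compared per length, as counts per kilobase of annotated exon with the libraries set to a common total (CPM per kilobase). Aplp1 was the highest of the 9 genes, at a median of 405 and a range of 324 to 446 over the 6 libraries. App followed at 208 (182 to 240.3). Aplp2 at 113 (103 to 127) and Apbb1 at 110.4 (84.9 to 114) overlapped each other, and both lay below App and above Bace1 at 21.5 (19.9 to 23.2). Of the 16074 tested genes with a length, 99.7% were lower than Aplp1, 99.3% lower than App and 98.1% lower than Aplp2.

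The secretase genes lay lower. Bace1 overlapped Adam10 at 19.0 (16.7 to 20.3), and from there Adam9 and Ncstn (15.8, 12.7 to 17.9) each overlapped the one before. Psenen (10.4, 8.97 to 12.2) lay below Ncstn and overlapped Aph1b. Aph1a at 4.32 (2.90 to 5.97) was below all of these and overlapped Psen2 at 3.16 (2.56 to 4.53). Bace2 was the lowest at 0.948 (0.634 to 1.37). Within the beta-secretases, Bace1 was 23.3 times Bace2 in WT and 23.6 times in Sgo1-/+. With the longest transcript in place of all annotated exon bases, Aplp1 (median 494) and App (445) overlapped in range, although Aplp1 stayed above App in each of the 6 libraries. By the same measure Psen2 (6.78) lay above Aph1a (5.20), so the order of that pair depends on the length used.

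**Figure D4:**
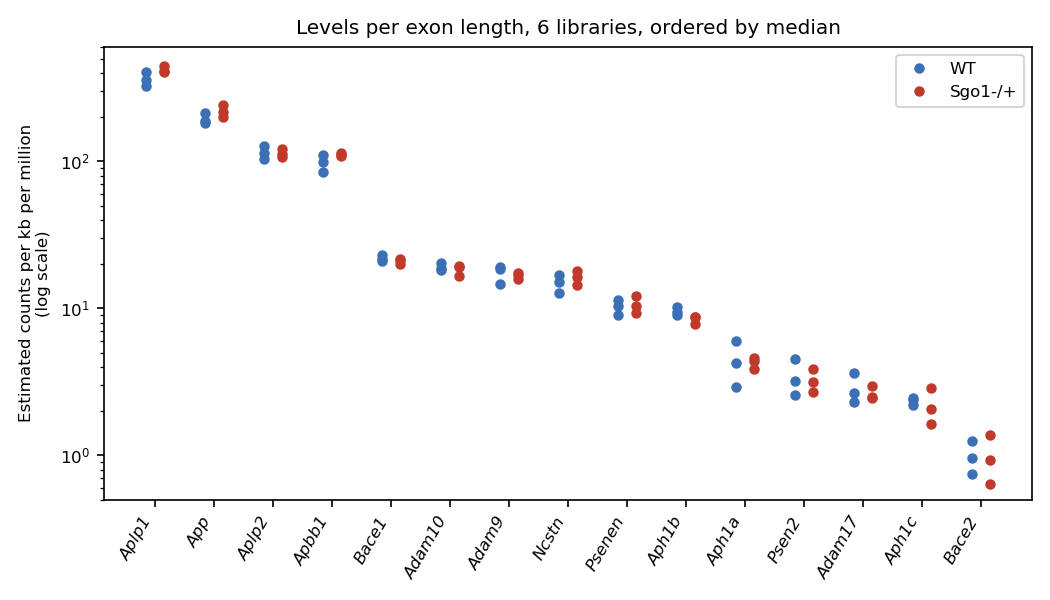
CPM per kilobase of exon, on a log axis, for the 9 genes and the other secretase genes, ordered by median with 1 point per library. Aplp1 (median 405) and App (208) stand at the top and Bace2 (0.948) at the bottom, and most neighbours from Bace1 to Aph1b overlap.

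Ratios within a library do not depend on how libraries are scaled. Of 8 ratios tested between the genotypes, Bace1 over App was the single one without overlap. Per kilobase, its log2 ratio was -3.06, -3.16 and -3.21 in WT and -3.34, -3.35 and -3.47 in Sgo1-/+. All 3 Sgo1-/+ libraries lay below all 3 WT libraries. The means were -3.15 ± 0.08 (SD, n = 3) and -3.39 ± 0.07 (SD, n = 3), which on the linear scale are 0.113 and 0.0957. The difference of -0.24 had an exact two-sided permutation p of 0.1, the smallest that 3 against 3 allows, and 0.8 after Benjamini-Hochberg adjustment over the 8 ratios. Of 16336 genes divided by App in this way, 1380 (8.45%) were likewise lower in Sgo1-/+ without overlap. Without WT replicate 1 the difference was -0.20.

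The log2 ratio of App to Aplp2 was 0.52, 0.86 and 0.92 in WT and 0.85, 1.02 and 0.98 in Sgo1-/+. WT replicate 1 was the lowest, and the difference of 0.19 (exact permutation p 0.3) became 0.06 without it. App to Aplp1 was steadier, with a WT mean of -0.89 ± 0.05 (SD, n = 3) against -0.94 ± 0.06 (SD, n = 3) for Sgo1-/+, and the difference of -0.05 was -0.02 without WT replicate 1. Apbb1 to App differed by 0.02, and by -0.04 without that library. App made up 28.0% to 29.7% of the summed per-length level of the 3 family genes in the 6 libraries, with means of 29.0 ± 0.291% (SD, n = 3) and 29.1 ± 0.966% (SD, n = 3). That difference of 0.104 percentage points was -0.0168 without WT replicate 1. Bace1 to Bace2 differed by -0.02, and by -0.22 without it. Aplp2 made up 20.1% in WT replicate 1 and 14.6% to 15.9% in the other 5 libraries. Psen2 to Ncstn differed by -0.19 and Aph1a to Ncstn by -0.10, and without WT replicate 1 these were 0.14 and 0.26. The adjusted p was 1 for each ratio other than Bace1 to App.

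**Figure D5:**
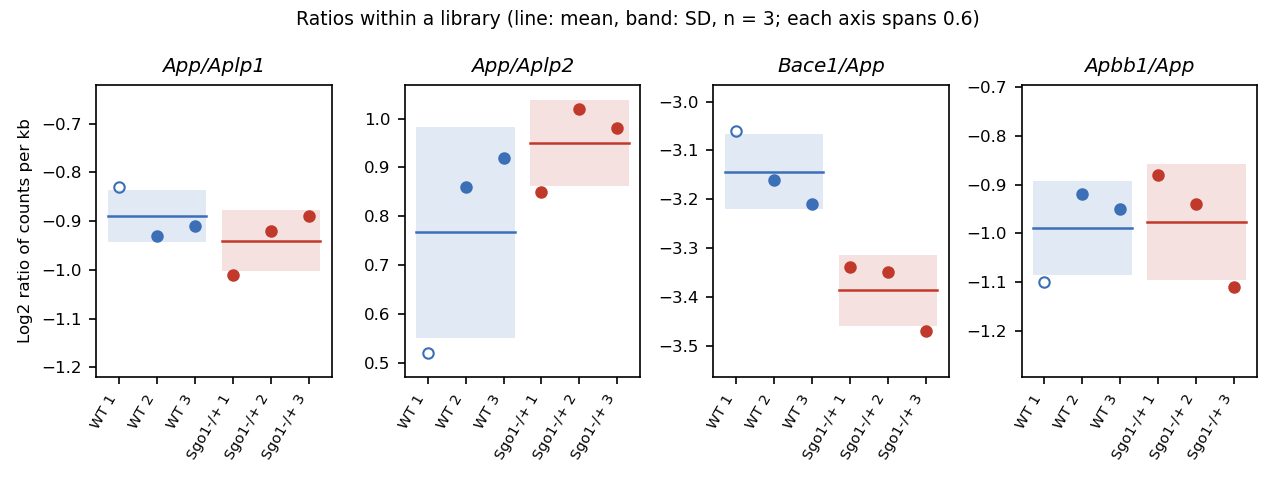
Log2 ratios of counts per kilobase in each library for 4 pairs of genes, with the mean of each genotype as a line and its SD as a band (n = 3) and each axis spanning 0.6. Bace1 to App lies between -3.06 and -3.21 in WT and between -3.34 and -3.47 in Sgo1-/+, whereas the other 3 ratios overlap between the genotypes.

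The pattern of App over the 6 libraries was compared with 11296 genes that had a mean normalized count of at least 100, by Pearson's r of log2 values. The 5 genes most like App were Synj2 (0.996), Spryd7 (0.983), Ifngr2, Syt11 and Tomm34 (0.981 each). Among the members compared, Aplp1 was the most similar to App, with an r of 0.93 and rank 57. Bace2 was below the minimum count and was not compared. Apbb1 was at 0.80, Ncstn at 0.74, Bace1 at 0.25 and Aplp2 at 0.06, and Psen2 and Aph1a were at -0.49 and -0.50. Over the 5 libraries without WT replicate 1, r was 0.94 for Aplp1, 0.83 for Aplp2, 0.76 for Apbb1, 0.56 for Ncstn, 0.43 for Bace1, -0.09 for Psen2 and -0.14 for Aph1a. All genes of a library share its depth, scaling and tissue makeup, and many genes were compared over only 6 libraries.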

How the data were processed

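Total RNA of 6 cerebrum samples was made into TruSeq libraries and sequenced on an Illumina MiSeq. Alignment to mm10 was done by the authors in Strand NGS 2.1, and the submitters' processing notes also name BWA and edgeR. The deposited table holds estimated counts per Ensembl gene, of which 47.0% to 48.3% per library are not whole. It also holds log2 values that the authors normalized with DESeq and set relative to the data set, and their own fold change columns, which were not used. The annotation release and the use of strand in counting were not given in the sources used here.

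Estimated counts were rounded and tested with edgeR 4.0.16 (TMM, default filter on low counts, glmQLFit and glmQLFTest, Benjamini-Hochberg adjustment, threshold 0.05) over 16337 genes in all 6 libraries, with no covariate. Permutation tests were exact and two-sided. Ratios and levels used exon lengths of GENCODE M21 within the gene bounds of the table, and a pseudocount of 1 was added before log2 for r. The alternatives were DESeq2 1.42.0, edgeR's likelihood ratio test, limma 3.58.1 on counts and on the deposited log2 values, other scalings and filters, sex or replicate number as a term, each library left out, and the 4 female libraries alone. Xist and Ddx3y matched the labelled sex in all 6 libraries. The edgeR test was also run on simulated data for this comparison (16164 genes, spread set below that of these libraries). It recovered 73.1% of genes changed 1.5-fold and 100% of those changed 2-fold, with 12 false calls. Only genes with a higher mean count than Bace2 were changed. In the real libraries edgeR's biological coefficient of variation was 25.9%, or 17.6% without WT replicate 1. The recovered shares therefore do not give the power of the test in these data.

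Some pathway and marker genes are not reported here. The 9 genes and all lists were chosen with earlier results of these data known. Genes were named by rule: the 9 genes, the other secretase genes, list genes with an unadjusted p under 0.05, the 5 genes most like App, and marker genes as examples. Mmp24 and Ctsl fall outside this rule and were named after their values were seen. Counting error covers reads only, and total counts of 11123917 to 12505561 limit the precision for the low genes.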

Additional observations from a re-analysis of the deposited data

How the results depend on the processing

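The 9 genes and the 6 other secretase genes gave 255 values over 17 alternatives each, with a smallest unadjusted p of 0.0626 and a smallest adjusted p of 0.764, so none passed the test under any of them. App, Aplp1, Ncstn, Apbb1, Bace1 and Aph1b kept their direction in all 17. Over all genes and with all 6 libraries, edgeR's quasi-likelihood test called 0, DESeq2 called 3 and edgeR's likelihood ratio test called 2. With the quasi-likelihood test, 1 gene was called among the 4 female libraries. When a library was left out it called 0 to 1 (1 without Sgo1-/+ replicate 2). Unadjusted p-values under 0.05 numbered 333, but 626 without WT replicate 1, 1040 without WT replicate 3, 578 among females and 563 with no filter on low counts. The causes were not tested.

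Directions turned in 26 values, all far from the threshold. Aph1a was 0.03 with limma on counts and 0.03 on the deposited values, 0.01 with sex as a term and 0.02 with the replicate block. With library totals alone, Psenen was -0.01. Among the 4 female libraries Aplp2 was 0.11, Bace2 0.45, Psen2 0.19, Aph1a 0.33, Aph1c 0.09 and Adam17 0.14, and the log2 ratio of Bace1 to Bace2 differed by -0.51. Without WT replicate 1, Aplp2 was 0.06, Bace2 0.21, Psen2 0.17, Aph1a 0.26 and Adam17 0.09. Without WT replicate 3, Psenen was -0.04 and Adam9 0.01, and without Sgo1-/+ replicate 1, Bace2 was 0.03 and Psenen -0.06. Without Sgo1-/+ replicate 2, Aplp2 was 0.02, Bace2 0.22, Aph1a 0.03 and Aph1c 0.07, and without Sgo1-/+ replicate 3, Psen2 was 0.03 and Adam10 0.01.

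When single libraries were left out, log2 fold changes ran from 0.10 to 0.25 for App, 0.14 to 0.30 for Aplp1, -0.09 to 0.06 for Aplp2, -0.10 to -0.03 for Bace1, -0.32 to 0.22 for Bace2, -0.25 to 0.17 for Psen2, 0.03 to 0.23 for Ncstn, -0.25 to 0.26 for Aph1a and 0.08 to 0.28 for Apbb1. They ran from -0.06 to 0.14 for Psenen, -0.21 to -0.12 for Aph1b, -0.35 to 0.07 for Aph1c, -0.17 to 0.01 for Adam9, -0.09 to 0.01 for Adam10 and -0.25 to 0.09 for Adam17. The difference in the log2 ratio of Bace1 to App ran from -0.27 to -0.20.

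The labels number the libraries 1 to 3 in both genotypes. Deviations of same-numbered libraries correlated at -0.15, 0.01 and -0.21 over genes, and those of unlike-numbered libraries at -0.22 to 0.29. Deviations were taken from the mean of each genotype, so with 3 libraries the correlations offset one another and cannot exclude a pairing. No library correlated best with the library of its own number. With the replicate block 0 genes were called and 280 had an unadjusted p under 0.05, and App was at 0.17 and Aplp1 at 0.22. Bace2, at 30.4 to 65.5 normalized counts per library, had the widest interval of the 9 genes.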
